A study of Mus musculus with 4 samples.

Results

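The early growth response factors Egr1, Egr2 and Egr3 and their corepressors Nab1 and Nab2 were examined in the chromatin accessibility maps of mouse bone marrow-derived macrophages (BMDMs). The peaks of all libraries were merged wherever they overlapped by at least 1 bp, and a merged region was given the gene name of its highest peak. Of the 60710 regions obtained, 28 carried the name of one of these 5 genes, namely 4 regions for Egr1, 8 for Egr2, 11 for Egr3, 3 for Nab1 and 2 for Nab2. The name records the nearest annotated start site and says nothing of which gene a distant region acts on. Chromatin was profiled by ATAC-seq, in which the Tn5 transposase cuts and tags open DNA. The cells came from the marrow of wild-type mice aged 8-12 weeks, of the C57BL/6 background according to the methods, and matured for 6 days in L929 supernatant, which supplies M-CSF, the growth factor of macrophages. The control group (2 libraries) received no cytokine, and the IL-4 group (2 libraries) received IL-4 at 20 ng/ml for 1 h. The supernatant and the days of culture were shared by both groups, and the methods describe the 2 libraries of a group as biological replicates. The comparison asked whether accessibility at these loci changed after a short exposure to IL-4, the cytokine that drives alternative macrophage activation.

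EGR proteins are zinc finger transcription factors of the immediate-early class. Growth factors and cytokines induce them through the RAS-ERK cascade, which acts on ETS cofactors of serum response factor (SRF) bound at CArG boxes. The induced EGR proteins bind a GC-rich DNA element called the EGR site. NAB1 and NAB2 bind EGR proteins and repress their target genes, in part by recruiting the NuRD chromatin remodelling complex, and since EGR proteins can induce the NAB genes the pair forms a negative feedback loop. EGR1 and EGR2 take part in macrophage differentiation, and EGR2 is known as a factor of alternatively polarised macrophages.

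The deposited lists held between 39462 and 45250 peaks per library. Each peak has a score, termed peak height from here on. It was taken to be the −log10 q of the peak, a measure of how clearly the peak stands out in its own library, and it is not a count of reads. The control libraries had median heights of 8.04 and 7.46, the IL-4 libraries of 7.69 and 6.41, and the second IL-4 library was the lowest. Heights grow with depth, which is unknown, so fold changes were taken from quantile-normalised log2 heights. The macrophage label was checked against marker genes, and 9 of 10 macrophage markers had a region in all 4 libraries (Csf1r, Cd14, Cd68, Fcgr1, Itgam, Lyz1, Lyz2, the Adgre1 gene under its older symbol Emr1, and the PU.1 gene Spi1 under its older symbol Sfpi1). On the same measure the T cell list had 1 of 6 (Lck), the B cell list 1 of 5 (Ms4a1), the fibroblast list 1 of 6 (Pdgfrb) and the neutrophil list 1 of 6 (S100a8). By promoter peaks in all 4 libraries, 6 of 10 macrophage markers passed, without Csf1r, Itgam and Lyz1, and no promoter of the T cell, B cell or fibroblast markers had a peak in any library. The neutrophil list had a promoter peak at S100a8 alone, with heights from 2.49 to 6.63.

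The start-site regions of both NAB genes held the EGR site, spelled GCGTGGGCG and searched on both strands. They are shown because they place the element that EGR proteins recognise at the promoters of their own corepressors. The sequences are from the mm10 genome (GRCm38.p6), read along the strand of the gene, with the EGR site in capitals in either orientation.
Nab1 start site, chr1:52500403-52500702, minus strand: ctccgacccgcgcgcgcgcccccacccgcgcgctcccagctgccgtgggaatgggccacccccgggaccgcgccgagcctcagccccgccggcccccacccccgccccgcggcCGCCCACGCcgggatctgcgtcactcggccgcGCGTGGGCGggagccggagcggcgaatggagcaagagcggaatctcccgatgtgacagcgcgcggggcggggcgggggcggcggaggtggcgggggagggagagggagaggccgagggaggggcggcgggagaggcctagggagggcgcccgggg
Nab2 start site, chr10:127666754-127667053, minus strand: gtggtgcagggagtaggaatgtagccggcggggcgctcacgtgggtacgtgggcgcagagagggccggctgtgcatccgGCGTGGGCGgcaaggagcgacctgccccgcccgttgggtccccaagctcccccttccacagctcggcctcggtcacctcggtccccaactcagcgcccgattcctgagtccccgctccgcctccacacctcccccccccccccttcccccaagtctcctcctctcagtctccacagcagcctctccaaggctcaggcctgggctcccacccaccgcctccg
In Nab1 the 2 matches lay 105 and 137 bp upstream of the RefSeq start site, in opposite orientations. In Nab2 the single match lay 267 bp upstream. The EGR site occurred in 2 of the 28 regions (7.14%) and in 268 of all 60710 regions (0.441%). Among all regions of similar length the share was 0.655% for Nab1 and 1.77% for Nab2, and among all 11415 promoter regions it was 1.68%. No region of Egr1, Egr2 or Egr3 held these letters.

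CArG boxes, the SRF element made of CC, 6 bases of A or T, and GG, occurred at the EGR genes and at neither NAB gene. The start-site region of Egr2 is shown because its box, in capitals, lies next to the start site.
Egr2 start site, chr10:67537602-67537901, plus strand: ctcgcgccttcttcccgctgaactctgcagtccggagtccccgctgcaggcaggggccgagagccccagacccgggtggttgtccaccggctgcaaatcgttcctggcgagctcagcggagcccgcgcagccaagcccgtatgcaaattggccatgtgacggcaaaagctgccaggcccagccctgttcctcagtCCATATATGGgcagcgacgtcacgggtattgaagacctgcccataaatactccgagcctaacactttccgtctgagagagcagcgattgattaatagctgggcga
The box lay 68 bp upstream of the start site. The Egr2 region held another box, 371 bp upstream and outside the window printed. CArG boxes were found in 5 of the 28 regions (17.9%) and in 1.2% of all regions.

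Distal Egr2 regions with the largest positive fitted changes are shown with their AP-1 sites, spelled TGACTCA or TGAGTCA, in capitals. AP-1 proteins of the FOS and JUN families are induced by the same signals as EGR proteins. The Egr3 region 15.3 kb upstream is shown as the single region with peaks in both IL-4 libraries and in neither control library, and it held none of the 6 motifs searched. A window of 200 bases around its highest peak, which reaches beyond the region, held a STAT6 site (TTCNNNNGAA).
Egr2 upstream 54.3 kb, chr10:67483420-67483719, plus strand: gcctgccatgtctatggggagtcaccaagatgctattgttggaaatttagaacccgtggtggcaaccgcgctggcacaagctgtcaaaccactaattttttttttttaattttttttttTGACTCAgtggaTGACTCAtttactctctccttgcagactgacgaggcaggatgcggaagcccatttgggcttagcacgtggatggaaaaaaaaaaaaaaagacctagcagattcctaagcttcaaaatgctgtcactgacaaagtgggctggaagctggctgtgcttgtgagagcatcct
Egr2 upstream 49.2 kb, chr10:67488528-67488732, plus strand: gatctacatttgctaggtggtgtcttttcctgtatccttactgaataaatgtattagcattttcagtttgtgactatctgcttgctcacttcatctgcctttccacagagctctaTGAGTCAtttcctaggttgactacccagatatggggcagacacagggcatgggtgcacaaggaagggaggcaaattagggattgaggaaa
Egr3 upstream 15.3 kb, chr14:70062068-70062230, plus strand: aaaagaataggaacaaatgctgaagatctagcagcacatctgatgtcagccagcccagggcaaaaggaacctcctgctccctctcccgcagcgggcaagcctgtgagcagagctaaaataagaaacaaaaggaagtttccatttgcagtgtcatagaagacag
The Egr2 region 54.3 kb upstream held 2 AP-1 sites, the only region of the 28 with more than 1. In all, 5 of the 28 regions (17.9%) held an AP-1 site, and 18.1% of all regions did. Egr2 regions with an AP-1 site also had negative fitted changes. These lay 98.4 kb upstream (log2 change −0.75) and 50.2 kb upstream (−1.45, with the missing height at the lowest score).

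Egr1, the founding member of the family, had 4 regions on chromosome 18, of which 3 had a peak in every library. The region at its start site (mm10 chr18:34860427-34861265, covering the start of exon 1 and sequence upstream) reached 14.76 and 12.98 without cytokine, and 11.87 and 9.26 with IL-4. Both IL-4 heights lay below both control heights, and they stayed below after quantile normalisation. The fitted change was small, at a log2 change of −0.17 (SE 0.40, limma adjusted p = 0.946). This region, of 839 bp, was the longest of the members and was split into 1 and 2 peaks in the control libraries and 1 and 3 peaks in the IL-4 libraries. It held 5 CArG boxes, at 79, 101, 349, 365 and 403 bp upstream of the start site, whereas a CArG box occurred in 3% of regions of similar length.

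The flanking regions of Egr1 varied within groups. The region 4.82 kb upstream measured 11.7 and 11.15 in control libraries and 5.62 and 10.1 in IL-4 libraries, so the first IL-4 library alone was low. Its log2 change was −0.35 (SE 0.47, limma adjusted p = 0.902), and this region held a PU.1 site, GAGGAAGT. The region 26.3 kb downstream measured 13.59 and 6.91 in control libraries and 10.96 and 5.64 in IL-4 libraries. The groups overlapped there, with a log2 change of −0.06 (SE 0.48, limma adjusted p = 0.987). The region 1.27 kb upstream was the lowest, with heights of 4.74, 4.13 and 4.43 in the control libraries and the second IL-4 library and no peak in the first.

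**Figure D1:**
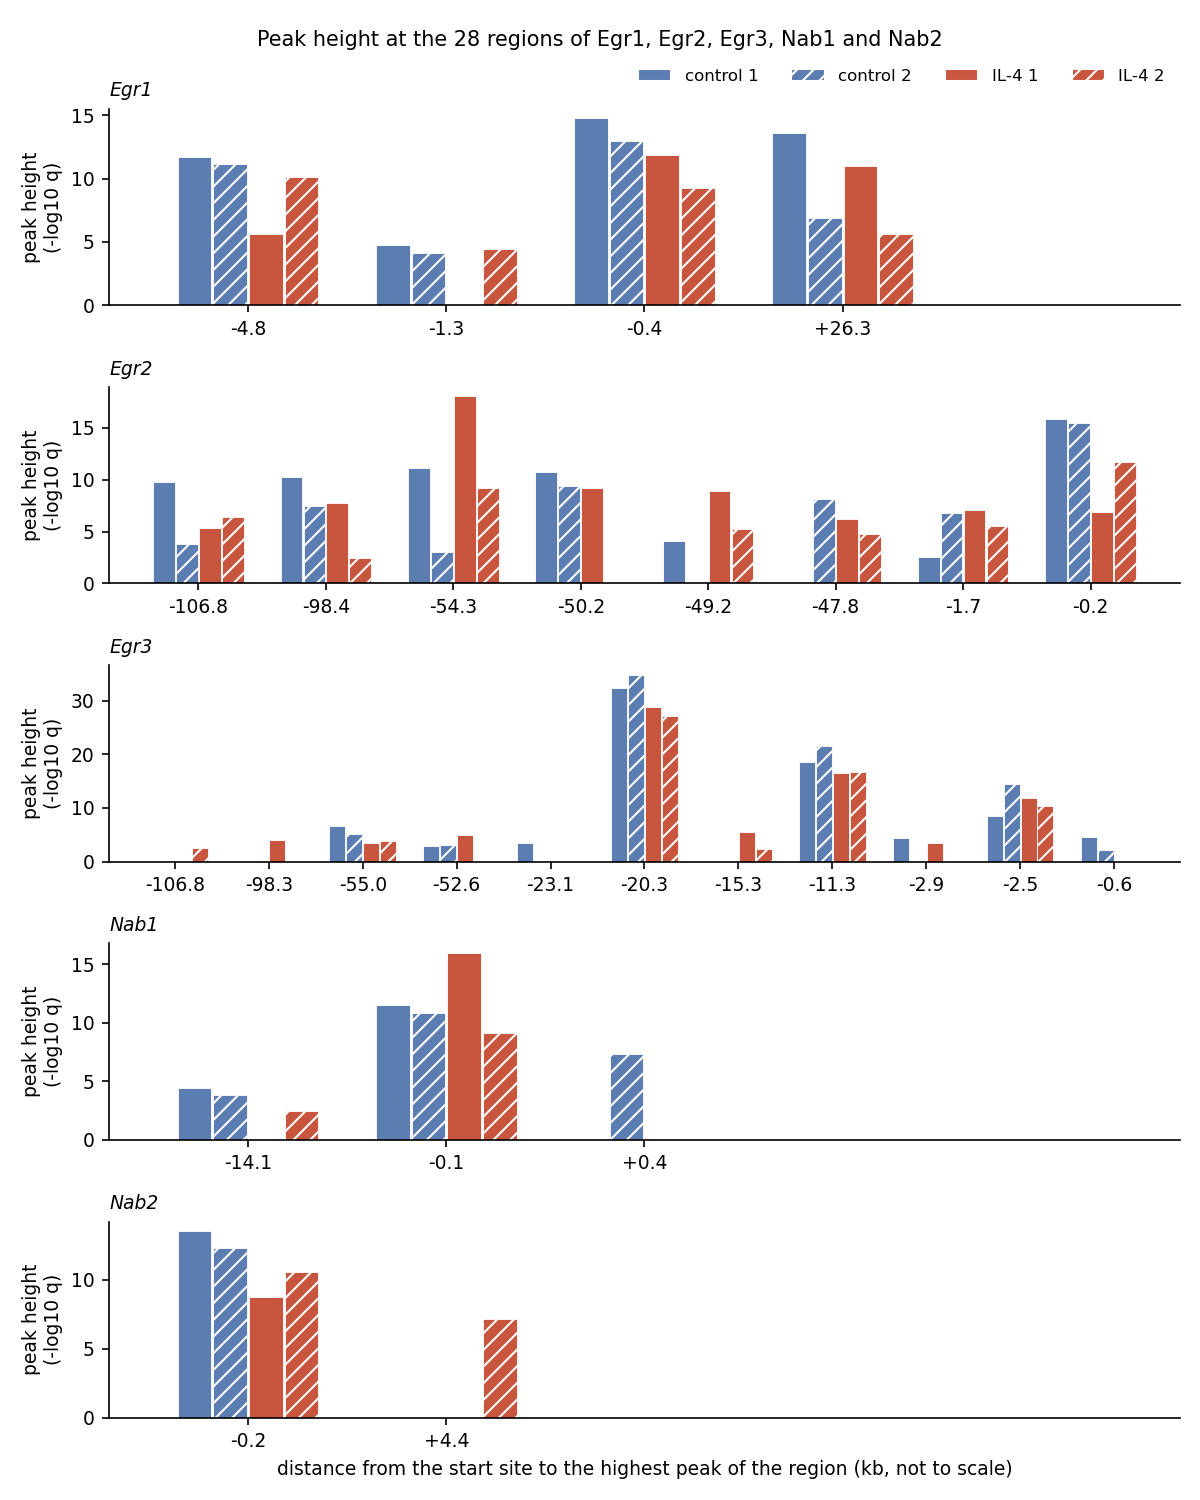
Peak height (−log10 q) of every region in each library, by gene and by distance from the start site in kb (positions not to scale). Blue bars are control and red bars IL-4 libraries, hatched for replicate 2, and a missing bar is a library without a peak; the Egr3 region 20.3 kb upstream, at 27.13 to 34.91, is the highest of all.

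Egr2, which encodes the EGR factor most tied to alternative polarisation, had the highest and the lowest fitted changes among the 14 regions tested, those called in every library. Its start-site region (mm10 chr10:67537372-67537901, over the start of exon 1 of the main transcript) reached 15.84 and 15.5 in controls and 6.91 and 11.67 with IL-4. Both IL-4 heights were below both control heights as deposited, but the groups overlapped after quantile normalisation. The log2 change was −0.58 (SE 0.41, limma adjusted p = 0.765). It was −0.05 without the first IL-4 library and −1.10 without the second.

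The opposite direction was seen at a distal Egr2 region 54.3 kb upstream (mm10 chr10:67483375-67483764, intergenic, with the start of the next gene, Ado, 65386 bp away). Its heights were 11.16 and 3.04 in controls and 18.03 and 9.2 with IL-4. The groups overlapped as deposited, since the second IL-4 library stayed below the first control library. After quantile normalisation both IL-4 values were above both control values, at 4.11 and 3.49 against 3.26 and 1.58 on the log2 scale. The log2 change of 1.38 (SE 0.51) was the largest of the 14 regions tested and had a limma unadjusted p of 0.00853, but it missed the threshold after adjustment over all 25442 regions (limma adjusted p = 0.411). Among the 14 regions tested, it was the only one with an unadjusted p below 0.05. Another fit took regions in at least 2 libraries, with missing heights at the lowest score. There the limma unadjusted p was 0.038 at the Egr2 region 49.2 kb upstream, where the height of the second control library was set. The share of all regions at that level was not counted in this fit. The Egr3 region 15.3 kb upstream entered it through its IL-4 peaks alone. Both of its control heights were set, so its p restates presence and is not given. The Egr2 region 54.3 kb upstream had a limma unadjusted p of 0.0905 in that fit (log2 change 1.47, SE 0.71, limma adjusted p = 0.516). In the fit of regions called in every library, its log2 change was 0.54 without the second control library, the lowest of the 4 values. Over the 4 fits that each left out 1 library it ran from 0.54 to 2.24.

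Between this region and the Egr2 gene lay a group of further Egr2 regions. The region 49.2 kb upstream had heights of 8.94 and 5.26 in the IL-4 libraries, 4.1 in the first control library and no peak in the second. With the missing height set to the lowest score of that library, its log2 change was 2.02 (SE 0.73, limma adjusted p = 0.425). The region 50.2 kb upstream showed the reverse presence, with 10.77 and 9.39 in the control libraries, 9.16 in the first IL-4 library and no peak in the second. The same treatment of the missing height gave a log2 change of −1.45 (SE 1.00, limma adjusted p = 0.665). This region held an AP-1 site. The region 47.8 kb upstream had no peak in the first control library and measured 8.09, 6.22 and 4.72 in the second control and the first and second IL-4 libraries. It held a PU.1 site. Farther out, the region 98.4 kb upstream measured 10.25 and 7.46 against 7.77 and 2.49, with the lowest log2 change of the 14 regions tested, −0.75 (SE 0.54, limma adjusted p = 0.767). This became −1.38 without the first IL-4 library and −0.11 without the second. The region held an AP-1 site. Groups overlapped there, and also at the region 107 kb upstream, where heights were 9.75 and 3.78 in control and 5.34 and 6.43 in IL-4 libraries (log2 change 0.17, SE 0.55, limma adjusted p = 0.962).

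A further Egr2 region lay 1.71 kb upstream of the main start site, over the first exon of a predicted alternative Egr2 transcript and the start of the predicted gene Gm32255. Its heights were 2.59 and 6.78 in control libraries and 7.11 and 5.54 in IL-4 libraries. The first control library was low and the other 3 were alike, so that the log2 change of 0.81 (SE 0.56, limma adjusted p = 0.758) became 0.04 when that library was left out.

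**Figure D2:**
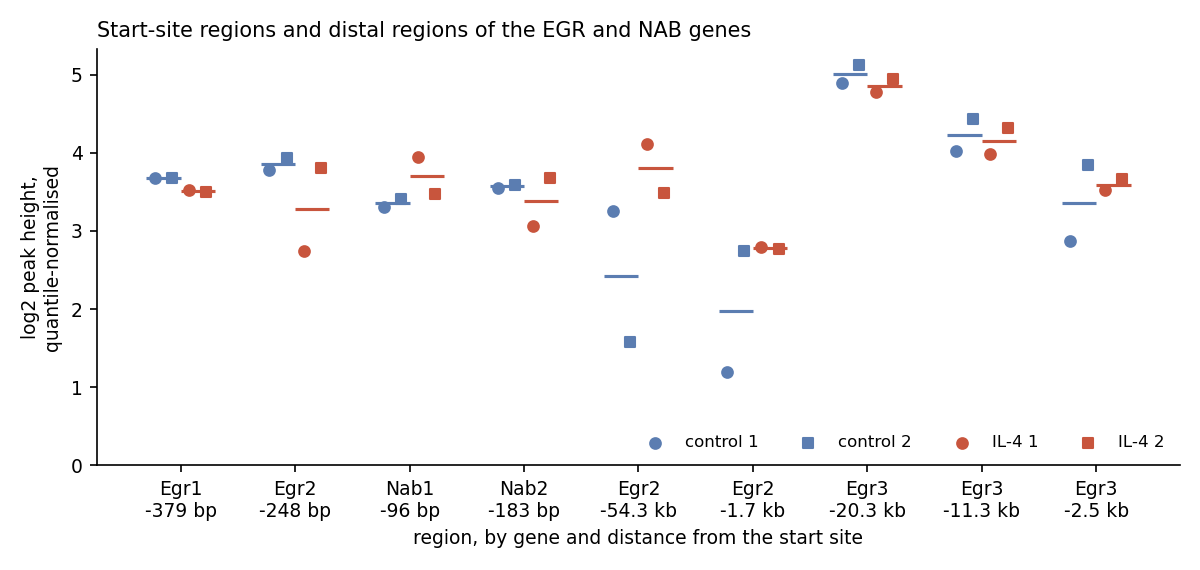
Quantile-normalised log2 peak height per library at the start-site regions and at 5 further regions of Egr2 and Egr3. Circles are replicate 1, squares replicate 2, and short lines the group means; at the Egr2 region 54.3 kb upstream the IL-4 values of 4.11 and 3.49 stand above the control values of 3.26 and 1.58.

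Egr3, a close relative of Egr2, had the most regions and the highest peaks, but a weak signal at its own promoter. Its highest region lay 20.3 kb upstream (mm10 chr14:70056914-70057379), inside the last intron of the neighbouring gene Pebp4. Heights were 32.49 and 34.91 in control libraries and 28.85 and 27.13 in IL-4 libraries, which placed it at percentiles 96.8 to 99 of the libraries' peak heights. The deposited heights were lower in both IL-4 libraries, the groups overlapped after normalisation, and the log2 change was −0.15 (SE 0.22, limma adjusted p = 0.911). This region held an AP-1 site and an NF-kB site.

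The next highest Egr3 region, 11.3 kb upstream in intergenic sequence, measured 18.57 and 21.6 in control and 16.51 and 16.79 in IL-4 libraries, with a log2 change of −0.07 (SE 0.31, limma adjusted p = 0.976). Searched over whole regions, it carried the one STAT6 site among the 28, TTCCCCTGAA, which fits the form TTCNNNNGAA that STAT6, the transcription factor activated by IL-4, recognises. That form was present in 7.22% of all regions and in 11.1% of regions of similar length. The same region held a CArG box, CCAAAATTGG. The region 2.5 kb upstream measured 8.51 and 14.56 in control and 11.93 and 10.35 in IL-4 libraries. Groups overlapped, and the log2 change was 0.23 (SE 0.43, limma adjusted p = 0.934).

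At the Egr3 promoter (annotated as promoter but upstream of the RefSeq start), peaks of 4.54 and 2.14 were found in the control libraries and none in the IL-4 libraries. The height of 2.14 stood at percentile 0.771 of the peak heights of its library. The region 15.3 kb upstream, in the first exon of the predicted non-coding gene Gm33524, had the opposite presence. It measured 5.56 and 2.35 in the IL-4 libraries and had no peak in the control libraries. Each of these regions entered the fit with missing heights at the lowest score through the peaks of 1 group alone. Their fitted changes there restate presence and are not given. Farther upstream, in introns of Pebp4, the region 55 kb away measured 6.62 and 5.17 against 3.45 and 3.78, lower in both IL-4 libraries before and after normalisation (log2 change −0.45, SE 0.55, limma adjusted p = 0.886). The other 5 Egr3 regions had peaks in 1 to 3 libraries, with heights of 4.99 or less.

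The start-site region of the corepressor gene Nab1 (mm10 chr1:52500364-52500740, over the start of exon 1) measured 11.53 and 10.84 in controls and 15.99 and 9.12 with IL-4. The first IL-4 library was the highest and the second the lowest of the 4. After normalisation both IL-4 values were above both control values, with a log2 change of 0.35 (SE 0.41, limma adjusted p = 0.88). Leaving out 1 library gave values from 0.11, without the first IL-4 library, to 0.58. The other 2 Nab1 regions were weak. One, 14.1 kb upstream, measured 4.38, 3.78 and 2.49 with no peak in the first IL-4 library, and the other, in the first intron 409 bp downstream of the start, had a peak of 7.32 in the second control library alone.

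Nab2, whose start-site region (mm10 chr10:127666635-127667171) also covers the start of the divergent non-coding gene 1700012D01Rik, measured 13.53 and 12.26 in control and 8.75 and 10.55 in IL-4 libraries. Both IL-4 heights were below both control heights as deposited, and the groups overlapped after normalisation (log2 change −0.19, SE 0.42, limma adjusted p = 0.944). Without the first IL-4 library the log2 change was 0.11. Here the signal of the 2 genes cannot be told apart. A second Nab2 region, in its last intron 4.43 kb from the start, had a peak of 7.13 in the second IL-4 library alone. Nab2 lies next to Stat6, and the 3′ ends of the 2 genes overlap by 70 bp.

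Among the start-site regions, the control libraries gave mean heights of 13.9 ± 1.26 for Egr1, 15.7 ± 0.24 for Egr2, 11.2 ± 0.488 for Nab1 and 12.9 ± 0.898 for Nab2 (SD, n = 2). The order of the 4 regions was the same in both control libraries, with Egr2 highest and Nab1 lowest. In the IL-4 libraries the means were 10.6 ± 1.85, 9.29 ± 3.37, 12.6 ± 4.86 and 9.65 ± 1.27, and the ranges of the 4 regions overlapped. Their GC content ran from 60.4% to 81.4%, beside a median of 63.8% over all 11415 promoter regions and 49.4% over other regions. Nab1 had the highest GC content. The 22 member regions more than 1 kb from the start site they were named for ranged from 41.5% to 75%.

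Taking the 5 genes as one list, 14 of the 28 regions (50%) had a peak in all 4 libraries, against 41.9% of all regions. No member region passed the limma test after Benjamini-Hochberg adjustment in either direction. The background was itself close to 0, with 0.0157% of the 25442 regions higher and 0.00786% lower. At an unadjusted p below 0.05, 1 of the 14 member regions tested was higher, beside 4.12% of the 25442 regions. At the same level 0 of the 14 were lower, beside 4.15%. The fitted change was positive at 5 regions and negative at 9, so 35.7% were positive against 49.9% of all regions tested. The median log2 change was −0.11, against a median of −0.0006 over all regions tested. Without the first IL-4 library the median of the members was 0.10. The SD of the log2 changes of all regions tested was 0.504. Outside that range lay 4 members (Egr2 at 54.3, 1.71, 98.4 and 0.248 kb), or 28.6% of those tested beside 28.8% of all regions tested.

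Counts of regions without overlap between groups depended on the scale. Shares here are of the 25442 regions tested, and member counts are of the 14 tested. As deposited, both IL-4 heights were below both control heights at 7 of the 14 (29.3% of the regions tested). They were above them at 0 (8.83% of the regions tested). After quantile normalisation 2 of the 14 were lower (18.6% of the regions tested), at Egr1 (the start site) and Egr3 (55 kb upstream). The higher regions were 3 of the 14 (19.2% of the regions tested), at Egr2 (54.3 and 1.71 kb upstream) and Nab1 (the start site). Regions shared by all libraries had a median height of 12.52 and 11.01 in control libraries and 11.14 and 8.86 in IL-4 libraries, so lower deposited heights in the second IL-4 library were general. Presence alone gave 1 of the 28 regions in both IL-4 libraries and no control library (2.53% of all 60710 regions). The reverse pattern was found at 1 of the 28 (4.33% of all 60710 regions).

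**Figure D3:**
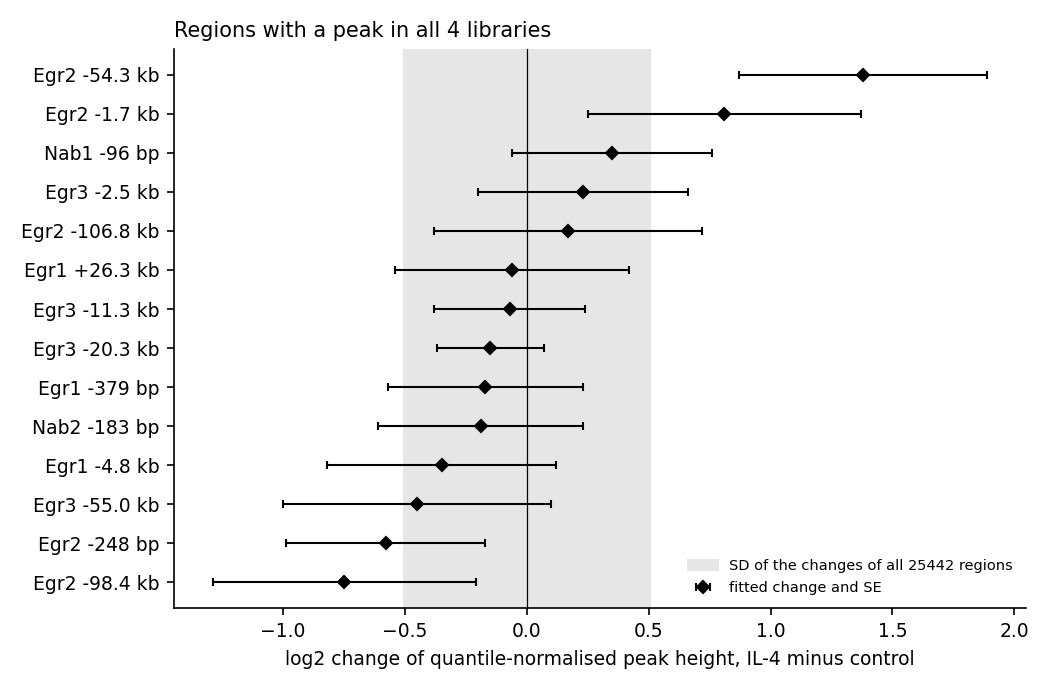
Log2 change of quantile-normalised peak height (IL-4 minus control) at the 14 member regions with a peak in all libraries. Diamonds and bars are the fitted change and its SE, and the grey band is the SD of 0.504 over all regions tested. The Egr2 region 54.3 kb upstream lies farthest to the right at 1.38.

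Totals over the members did not separate the groups. The number of peaks in member regions was 22 in each control library and 22 and 24 with IL-4 (exact permutation test, two-sided, p = 1.0000). Member regions held 4.67 and 5.09 per 10000 of the summed peak height of the control libraries and 4.84 and 5.15 of the IL-4 libraries. The means were 4.88 ± 0.297 and 4.99 ± 0.223 (SD, n = 2), a difference of 0.118 (exact permutation test, two-sided, p = 0.6667). With 2 libraries against 2 this test cannot give a p below 0.3333.

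EGR sites in the spelling GCGTGGGCG and CArG boxes lay at different genes. Among the 28 regions, that spelling was found at Nab1 and Nab2 only, and CArG boxes at Egr1, Egr2 and Egr3 only. Other spellings of the EGR site were not searched, so these matches do not show where such sites are absent. AP-1 sites were found at Egr2 (4 regions) and Egr3 (1 region), in distal regions in each case. PU.1 sites were present in 2 regions (7.14%, beside 9.87% of all regions) and NF-kB sites in 3 regions (10.7%, beside 3.62%), and 1 NF-kB site lay in the Nab1 start-site region. No match to one motif overlapped a match to another. These matches describe the letters of the reference and were not tested against any change in height.

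**Figure D4:**
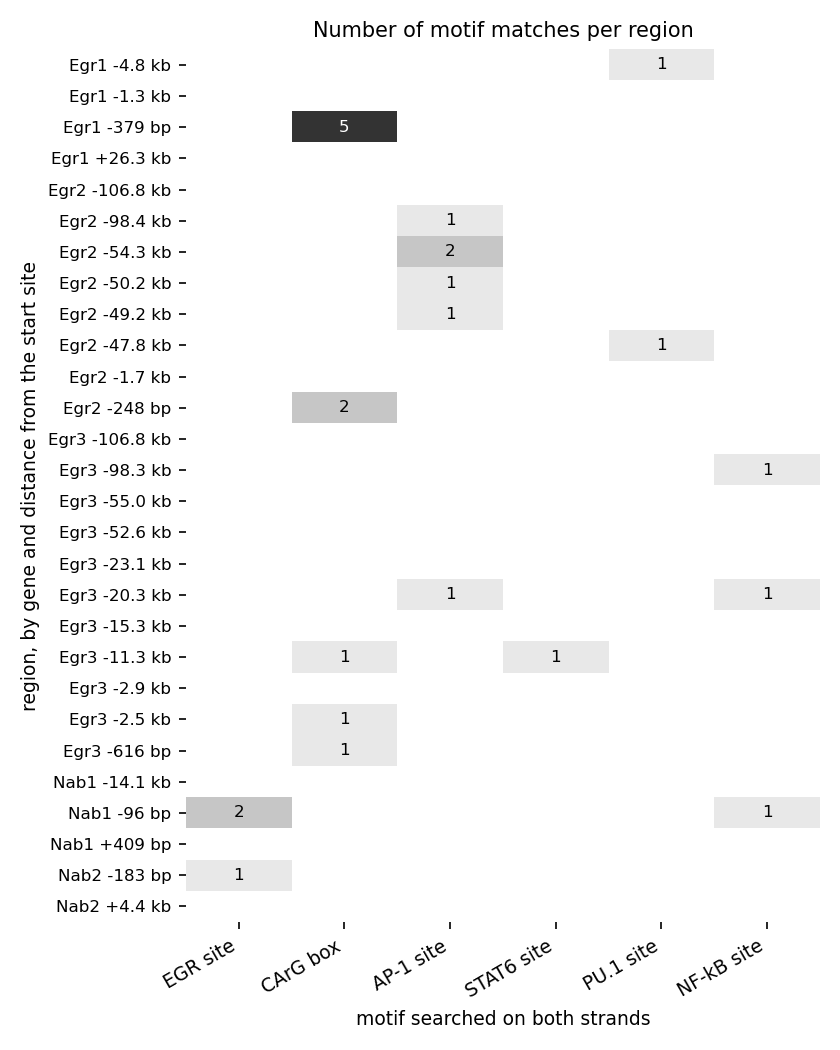
Number of matches to each of 6 motifs (columns) in each of the 28 regions (rows, by gene and distance from the start site). Darker cells hold more matches. The Egr1 start-site region has 5 CArG boxes, and EGR sites, searched as GCGTGGGCG alone, appear at the start sites of Nab1 and Nab2.

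Genes that act with the EGR and NAB proteins gave no adjusted call either. Their counts at an unadjusted p below 0.05 stand beside 4.12% higher and 4.15% lower over all regions tested. SRF, which binds the CArG box, and its ETS and MRTF cofactors had 42 regions, of which 19 were tested, with 2 higher and 1 lower. The RAS-ERK cascade had 33 regions with 16 tested and 0 at that level in either direction. Other immediate-early genes, among them Fos, Jun and Myc, had 125 regions with 62 tested, 0 higher and 4 lower. The NuRD genes had 16 regions with 10 tested, 0 higher and 1 lower. Adjusted p-values of the limma fit were 0.212 or more in these lists. Of the EGR relatives, Wt1 had 1 region, which was not in all 4 libraries, and no region was named for Egr4.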

How the data were processed

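ATAC-seq libraries of BMDMs from wild-type mice were analysed, 2 control and 2 IL-4 libraries, grouped by the labels. According to the submitters' processing notes and the methods, the authors aligned reads to mm10 with BWA 0.7.10 and SAMtools 0.1.19, called peaks in each library on its own with MACS2 2.0.10, removed blacklisted regions and annotated peaks with HOMER 4.2. Tn5 shifting and the treatment of duplicates are not given in the sources used here. The score the authors deposited has no stated unit and was taken as −log10 q from MACS2, since the lowest scores were 1.3 and 1.32. The methods name a cut-off equal to a score of 2, but 133 to 603 peaks per library scored less. The files hold no reads, so depth is unknown and no counting interval can be given.

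Of 168587 deposited peaks, the 168575 on chromosomes 1 to 19, X and Y were merged at 1 bp overlap. The highest peak gave a region its height and gene name in each library and overall. Where all 4 libraries had a peak (25442 regions), log2 heights were quantile-normalised and fitted with limma 3.58.1 (R 4.3.3; eBayes with a trend), and p-values were adjusted by Benjamini-Hochberg over all of them (threshold 0.05). The fit was run on simulated data with planted changes larger than any fitted change of a member region. Smaller changes were not simulated. Totals per library were compared by an exact permutation test (scipy 1.17.1). Motifs were searched in the GRCm38.p6 reference. All peaks fitted its chromosome lengths, and 78.7% of 163461 annotated peaks had the same distance to the start site within 2 bp.

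All 5 genes were named. Regions were described by library where they lay at a start site, were among the 5 highest of a gene in all libraries, were present in one group only, had an unadjusted p below 0.05, or showed the largest rise or fall of a gene. Some further regions near Egr2, Egr3 and the NAB genes were described after their values were seen. Some sequences and 1 marker list are not reported here. The members and lists were chosen with earlier results of these data known. Alternatives were median centring, no variance trend, a replicate block, regions in at least 2 libraries, leaving out each library, a score of at least 2, merging within 500 bp, a limit of 50 kb to the start site and 200-base motif windows.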

Additional observations from a re-analysis of the deposited data

How the results depend on the processing

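No member region passed the adjusted threshold under any of the alternatives run. Of 140 alternative values of single regions, 131 kept their direction and 9 reversed, each when 1 library was left out and none called. These were Egr1 26.3 kb downstream (0.33 without control replicate 1, 0.24 without IL-4 replicate 2; range −0.45 to 0.33), Egr1 4.82 kb upstream (0.23 without IL-4 replicate 1; −0.94 to 0.23), Egr2 107 kb upstream (−0.37 without control replicate 2, −0.14 without IL-4 replicate 2; −0.37 to 0.71), Egr3 11.3 kb upstream (0.13 without control replicate 2, 0.09 without IL-4 replicate 1; −0.28 to 0.13), Egr3 2.5 kb upstream (−0.26 without control replicate 1; −0.26 to 0.72) and Nab2 at the start site (0.11 without IL-4 replicate 1; −0.49 to 0.11). The log2 change of the Egr2 region 54.3 kb upstream ran from 0.54 to 2.24 over the fits without 1 library. The median change of members ran from −0.24 to 0.10 in these fits, positive without IL-4 replicate 1. The difference in summed height share ran from −0.0919 (without control replicate 1) to 0.328, and was −0.0398 without IL-4 replicate 2. Leaving out 1 library gave 2 to 3 member regions in IL-4 libraries alone and 2 to 3 in control libraries alone, by construction of a looser rule, against 1 and 1.

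Over all regions, 4 were called higher and 2 lower. Both counts were 0 without the variance trend and with regions in at least 2 libraries, and they ran from 0 to 12 higher, with 0 lower, without 1 library. With the replicate block 11 were called higher and 3 lower, with 0 members, and the Egr2 region 54.3 kb upstream had a limma adjusted p of 0.303. Libraries with the same replicate number did not deviate together, with a correlation of deviations of 0.0068 over 25442 regions. The labels do not say whether they share an animal or preparation, and this correlation cannot decide it. The cause of these shifts was not tested. With 200-base windows around the highest peak, the STAT6 site 11.3 kb upstream of Egr3 fell outside and 2 other Egr3 regions held one, 98.3 and 15.3 kb upstream. The Egr2 start-site CArG boxes and the AP-1 site 98.4 kb upstream of Egr2 also fell outside, so that CArG boxes and AP-1 sites were each in 4 regions in place of 5. NF-kB sites were in 4 regions in place of 3.

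With 2 libraries per group, 1 time point and heights in place of reads, the size of change that can be detected is limited. No RNA or protein of the EGR or NAB genes was measured in these libraries.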
